A study of Homo sapiens with 4 samples.

Results

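Mitosis and kinetochore genes were examined for binding of FOXK1, a forkhead transcription factor, in HK-2 cells, a human proximal tubular epithelial line immortalised with papillomavirus oncogenes. The 40 genes, of 20033 protein-coding genes, encode mitotic kinases, checkpoint proteins, centromere and kinetochore subunits, and spindle, cytokinesis and chromosome proteins. The list was chosen with earlier results of these data known. For each gene the highest FOXK1 peak reaching into the 1 kb before or after an annotated end of the gene was taken from each peak list, and is called its gene-end peak. HK-2 cells were either left without cytokine (the control condition, whose peak list is called untreated below) or given 10 ng/ml TGF-β1, a profibrotic cytokine, for 24 h. No allele or strain differed between the conditions. Each condition had 1 FOXK1 immunoprecipitation and 1 input library, called by the authors as 1 peak list (untreated or treated), so there was no replicate and no test of TGF-β1. The series was made to ask how FOXK1 acts in renal fibrosis.

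In mitosis, chromosomes attach to spindle microtubules through the kinetochore, which is built on centromeric chromatin marked by the histone variant CENPA. The spindle checkpoint holds back the anaphase-promoting complex and its activator CDC20 until the attachments are complete. Many of these genes are transcribed late in the cell cycle. Their promoters are known for CCAAT boxes, bound by NF-Y, and for the cell cycle genes homology region (CHR), bound by the MuvB complex together with B-MYB and FOXM1, another forkhead factor.

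All values are pileup heights, the number of overlapping fragments at a peak as MACS2 lists it, a reading that rests on the format of the files. Height moves with sequencing depth, which was unknown, so the heights of both lists are set side by side as a description and not as a measure of change. On assembled chromosomes the lists held 381700 (untreated) and 439136 (treated) peaks, both with a median height of 5. Peaks are called strong here from the height of the 10000th highest of a list, which was 17 in the untreated list and 15 in the treated list. RNA was not measured, so the identity of the cells could not be checked by expression. Of 12 epithelial and proximal tubule marker genes, 6 carried a gene-end peak of any height in each list (75.3% and 74.6% of all protein-coding genes did). Median heights over the 12 were 2 and 1.5, with genes without a peak counted as 0. The keratin genes KRT8 and KRT18, with a shared peak of 89 and 71, were the 2 that reached a height of 10 in either list.

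All 40 mitosis and kinetochore genes had a gene-end peak in the untreated list and all 40 had one in the treated list. Over all protein-coding genes the share was 75.3% in the untreated list and 74.6% in the treated list, and 64.0% had one in both. The heights ran from 6 to 101 in the untreated list, with a median of 14 against 8 over all protein-coding genes. In the treated list they ran from 5 to 99, with a median of 11.5 against 7. Genes without a peak entered both medians over all genes as 0. A height of 10 or more was reached by 30 members in the untreated list, where 39.8% of all genes reached it. In the treated list 25 members reached it, and 32.7% of all genes did.

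Strong peaks were found at 15 members in the untreated list (37.5%) and at 13 in the treated list (32.5%). Of all protein-coding genes, 17.0% and 15.7% had one. Both lists had 12 of these members in common, against 11.9% of all genes strong in both. Promoters rich in CpG dinucleotides had peaks more often than genes at large, and the members' promoters were CpG-rich. RefSeq promoter entries (GRCh38.p14, 250 bases before to 50 after the start) matched 32 members, and 31 of these had an observed to expected CpG ratio of 0.6 or more, against 65.8% of the 15842 protein-coding genes with an entry. Among all genes with such a promoter, 86.8% and 85.9% had a gene-end peak, and 23.9% and 22.1% a strong one, in the untreated and treated lists. Of the 31 members, 13 and 12 were strong. No difference between the members and other genes was tested.

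**Figure D1:**
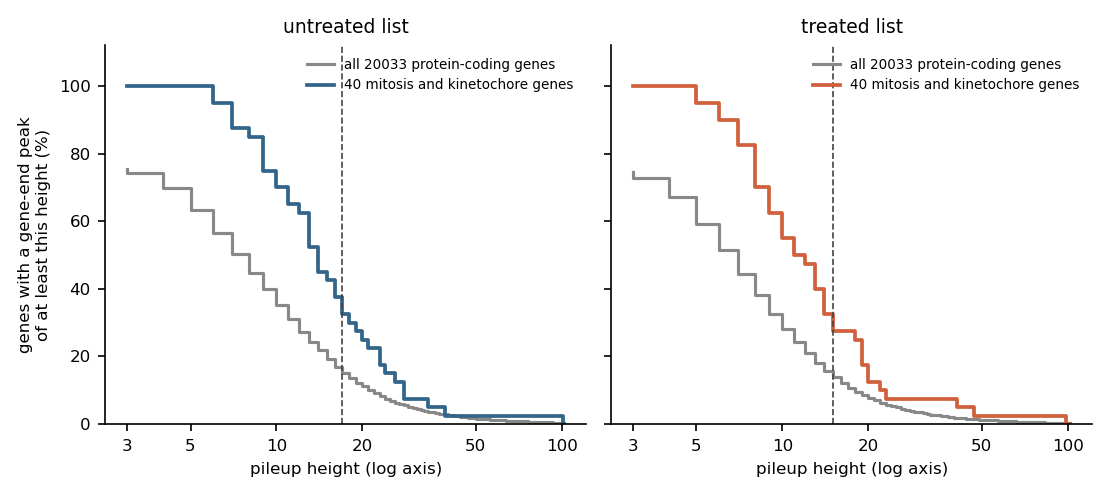
Share of genes (y axis, percent) with a gene-end peak of at least a given pileup height (x axis, log scale), in the untreated list (left) and the treated list (right). The coloured line is the 40 mitosis and kinetochore genes and the grey line all 20033 protein-coding genes. The dashed line marks where strong peaks begin, at 17 and 15, where the members stand at 37.5% and 32.5% and all genes at 17.0% and 15.7%.

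CENPF stood far above the other members, and the promoters of the 5 members with the highest peaks that reach the promoter window are shown to let the letters under these peaks be read. They are given 5′ to 3′ on the strand of the gene, from RefSeq on GRCh38.p14, in the order CENPF (chr1:214602945-214603244, plus strand), ECT2 (chr3:172750476-172750775, plus), KIF20A (chr5:138178862-138179161, plus), CDCA8 (chr1:37692266-37692565, plus) and CENPC (chr4:67545454-67545753, minus). Capitals mark matches, on either strand, to any of the 9 motifs described further on, chiefly CCAAT (which reads ATTGG from the opposite strand) and TTTGAA.
CENPF: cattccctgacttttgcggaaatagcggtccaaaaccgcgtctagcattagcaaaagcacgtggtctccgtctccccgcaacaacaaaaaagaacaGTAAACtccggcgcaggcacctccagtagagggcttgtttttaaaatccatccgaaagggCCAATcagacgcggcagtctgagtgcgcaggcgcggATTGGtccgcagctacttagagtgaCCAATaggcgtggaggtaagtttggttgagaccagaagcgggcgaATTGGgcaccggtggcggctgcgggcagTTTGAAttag
ECT2: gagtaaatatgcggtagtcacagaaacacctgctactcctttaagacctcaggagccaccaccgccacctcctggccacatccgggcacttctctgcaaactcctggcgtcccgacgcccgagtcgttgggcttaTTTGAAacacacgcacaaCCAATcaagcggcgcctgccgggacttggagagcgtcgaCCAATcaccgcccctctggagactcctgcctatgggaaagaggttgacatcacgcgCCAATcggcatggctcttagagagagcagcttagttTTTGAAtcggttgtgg
KIF20A: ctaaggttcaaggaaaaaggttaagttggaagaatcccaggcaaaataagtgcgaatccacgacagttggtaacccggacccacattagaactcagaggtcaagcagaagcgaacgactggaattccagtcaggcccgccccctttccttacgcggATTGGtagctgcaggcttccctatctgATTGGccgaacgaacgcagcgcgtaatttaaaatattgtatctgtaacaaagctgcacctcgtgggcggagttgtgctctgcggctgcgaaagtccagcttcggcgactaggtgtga
CDCA8: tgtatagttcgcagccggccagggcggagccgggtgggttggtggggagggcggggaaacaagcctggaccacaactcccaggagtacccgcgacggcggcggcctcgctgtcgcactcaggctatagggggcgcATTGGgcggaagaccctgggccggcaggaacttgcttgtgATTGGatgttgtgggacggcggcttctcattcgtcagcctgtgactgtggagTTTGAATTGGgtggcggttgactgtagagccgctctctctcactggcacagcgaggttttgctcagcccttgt
CENPC: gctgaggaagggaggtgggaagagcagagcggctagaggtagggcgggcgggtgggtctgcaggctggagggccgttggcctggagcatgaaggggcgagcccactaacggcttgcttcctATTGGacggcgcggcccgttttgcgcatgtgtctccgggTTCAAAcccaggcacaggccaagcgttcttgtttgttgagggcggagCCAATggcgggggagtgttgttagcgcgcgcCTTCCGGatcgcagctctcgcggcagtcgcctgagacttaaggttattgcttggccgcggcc
In both lists the gene-end peak covered all 300 bases shown for CENPF, ECT2, CDCA8 and CENPC. For KIF20A the untreated peak covered all 300 and the highest treated peak covered 0.

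CENPF, a large coiled-coil protein of the outer kinetochore, had heights of 101 in the untreated list and 99 in the treated list. These exceeded the heights of 99.6% and 99.7% of protein-coding genes. The untreated peak lay at chr1:214602210-214603486 (hg38) and the treated peak at chr1:214602374-214603710, with 1113 bp in common, and both lay across the transcription start. No other protein-coding gene had an end within 1 kb of either peak. The next highest member in the untreated list, CDCA8, had 39, and the next in the treated list, ECT2, had 47.

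The other outer kinetochore genes had heights from 7 to 26 in the untreated list and from 5 to 22 in the treated list. SPC24, a subunit of the NDC80 complex that holds microtubules, had 26 and 19. The treated peak of SPC24 ended short of the start, while the untreated peak covered it. NUF2, of the same complex, had 19 and 22, from a peak shared with RGS5. SPC25 had 16 and 15, and NDC80 itself had 13 and 13, shared with METTL4. Of the 4 subunits of the complex, NUF2 and SPC24 were strong in both lists. ZWILCH, which helps to recruit dynein to the kinetochore, had 24 and 20, but its peak also lay at the end of the ribosomal protein gene RPL4. Low peaks were found at CENPE, a kinetochore motor, with 10 and 9, at ZWINT, a kinetochore adaptor, with 9 and 5, and at KNL1, the scaffold on which BUB proteins dock, with 7 and 8. Strong peaks were found at 4 of these 9 genes in the untreated list and 5 in the treated list.

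Inner kinetochore genes were strong at 3 of 7 in each list. CENPC, which links centromeric nucleosomes to the outer kinetochore, had heights of 28 and 20. CENPA, the centromeric histone variant, had 23 and 19, and its treated peak ended short of the start while the untreated peak covered it. CENPK, of the constitutive centromere network, had 21 and 15, from a peak shared with PPWD1. These 3 genes were strong in both lists. CENPN had 14 and 13 from peaks that were both shared with the neighbour CMC2. Its highest untreated peak had its middle at -1468 bp from the start, and a lower untreated peak of 13 covered the start. CENPH had 9 and 14, CENPM had 6 and 9 from peaks shared with SMIM45, and CENPI had 6 and 7, all below the strong heights.

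Among the spindle checkpoint genes MAD2L1 was strong in each list and no other was. MAD2L1, which sequesters CDC20, had 23 and 18 from peaks with 1613 bp in common. TTK, the kinase that starts checkpoint signalling, had 13 and 14 from peaks that were apart. Each of its peaks was overlapped by a lower peak of the other list, with 5 in the treated list and 9 in the untreated list. BUB1, a checkpoint kinase, had 13 and 7, BUB3, its binding partner, 10 and 8, and BUB1B, the checkpoint protein BubR1, 9 and 6. CDC20, the target of the checkpoint, had 9 and 10 at opposite ends of the gene. The untreated peak lay at the far end, shared with ELOVL1, where the treated list had no peak. The treated peak lay across the start, where the untreated list had a peak of 8.

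Of the kinases that drive entry into mitosis, PLK1 had 20, within reach of DCTN5, and 11. AURKA had 17 and 14 from a peak shared with CSTF1. Both were strong in the untreated list and not in the treated list, and AURKA lay at the minimum of 17 in the first and 1 below the minimum of 15 in the second. In the chromosomal passenger complex, which corrects wrong attachments, CDCA8 (borealin) had 39 and 23 from peaks with 1471 bp in common, shared with the neighbour AIRIM. The kinase of the complex, AURKB, had 15 and 10, BIRC5 (survivin) 14 and 10, and the scaffold INCENP 8 and 5. Only CDCA8 of these 4 genes was strong in either list.

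The highest peak after CENPF in the treated list was at a cytokinesis gene, ECT2. ECT2, which activates RhoA for furrow formation, had 34 in the untreated list and 47 in the treated list, across the start in both. The untreated peak lay at chr3:172750014-172751076 and the treated peak at chr3:172750246-172751166 (hg38). KIF20A, a kinesin of the central spindle, had 28 and 41. Its highest treated peak had its middle at -912 bp from the start, within reach of the neighbour BRD8, and a treated peak of 21 covered the KIF20A start. The untreated peak covered the start and was also within reach of BRD8, so these heights cannot be assigned to either gene alone. ANLN, an actin-binding furrow protein, had 11 and 8 from peaks shared with MATCAP2, and PRC1, which bundles antiparallel microtubules, 7 and 7. KIF23, the motor subunit of centralspindlin, had a untreated peak of 7 inside the gene and a treated peak of 12 across the start. No untreated peak overlapped that treated peak, and KIF23 was the 1 member whose highest treated peak had no counterpart in the untreated list. With 1 library per condition this remains a statement about 2 lists.

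Spindle proteins had strong untreated peaks at TPX2 and KIF2C. TPX2, which activates AURKA on the spindle, had 17 and 19 and was the 1 member of the group strong in both lists. KIF2C, a microtubule depolymerase, had 18 in the untreated list and 6 in the treated list. Both KIF2C peaks were centred within 26 bp of the start. KIF11, the kinesin that separates spindle poles, had 13 and 8. Of the chromosome proteins none was strong. TOP2A, the topoisomerase that decatenates chromosomes, had 16 and 13 from peaks inside the gene that did not reach the start. MKI67, the Ki-67 proliferation marker, had 14 and 9, PTTG1 (securin) 12 and 11, and ESPL1 (separase), which cleaves cohesin, 11 and 8.

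**Figure D2:**
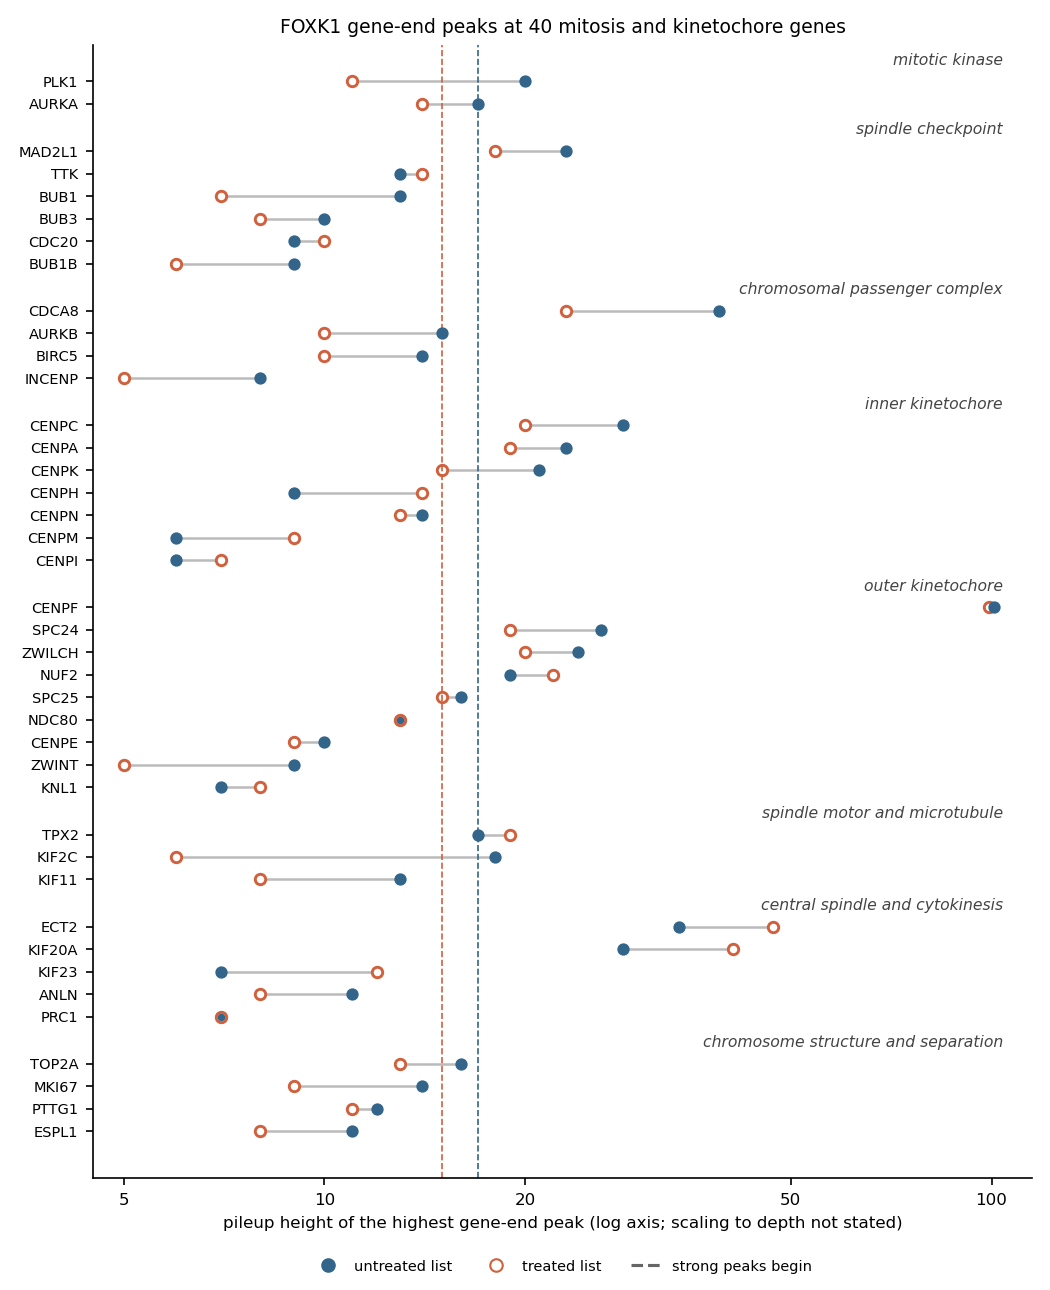
Pileup height of the highest gene-end peak (x axis, log scale) of each of the 40 genes (rows, grouped by role) in the untreated list (filled) and the treated list (open), 1 library each. Dashed lines mark where strong peaks begin, at 15 for the treated list and 17 for the untreated list. CENPF, at 101 and 99, lies apart from the other 39 genes, none of which exceeds 47.

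At the strong minimum were AURKA and TPX2, each with 17 in the untreated list, and CENPK and SPC25, each with 15 in the treated list. Just below it were SPC25 and TOP2A, each with 16 in the untreated list, and AURKA, CENPH and TTK, each with 14 in the treated list. Strong in the untreated list only were 3 members, PLK1, AURKA and KIF2C, and SPC25 was the 1 member strong in the treated list only. Over all genes, 5.10% were strong in the untreated list only and 3.77% in the treated list only. The height was greater in the untreated list at 27 members, greater in the treated list at 11 and equal at 2. Of all genes with a peak in both lists, 60.1% had the greater height in the untreated list.

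The sites were largely common to both lists. At 37 of 40 members the highest gene-end peaks of the lists overlapped by at least 1 bp, against 71.8% of all genes with a peak in both. The exceptions were TTK, CDC20 and KIF23. For 39 members in each direction some peak of the other list overlapped the highest peak. The share of all genes for which this held was not computed, so whether 39 is high for lists of this size cannot be read here. The member peaks were also wide, with a median of 1065 bp in the untreated list and 810 bp in the treated list. Over all genes with one, the highest gene-end peak had medians of 668 and 615 bp. The relation of width to height was not computed, and the part of width in the overlap was not tested.

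Most of these peaks lay at the transcription start. For the 32 members with a strand in the RefSeq table, the highest peak lay within 1 kb of the start in 31 cases in the untreated list and 32 in the treated list, against 80.7% and 80.4% of all genes with a gene-end peak and a strand. CDC20 was the exception in the untreated list. The start was taken as the annotated end of the gene, also at CENPI, whose promoter entry lies inside the gene. The start itself was covered by the highest peak at 27 members in the untreated list and 23 in the treated list. Of all genes with a gene-end peak and a strand, the highest peak covered the start at 49.0% and 44.1%. A peak of any rank covered it at 29 and 24 members, a measure for which the share of all genes was not computed. The part of peak height or width in this coverage was not tested. The middle of the peak lay at a median of 12.5 bp inside the gene in the untreated list and at -118 bp, upstream, in the treated list. The gene-end peak was also the highest of the whole gene with its flanks at 33 and 32 of the 40 members, against 66.0% and 65.4% of all genes with a gene-end peak. ESPL1 was among the exceptions, with a treated peak of 18 within the gene against 8 at its ends.

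**Figure D3:**
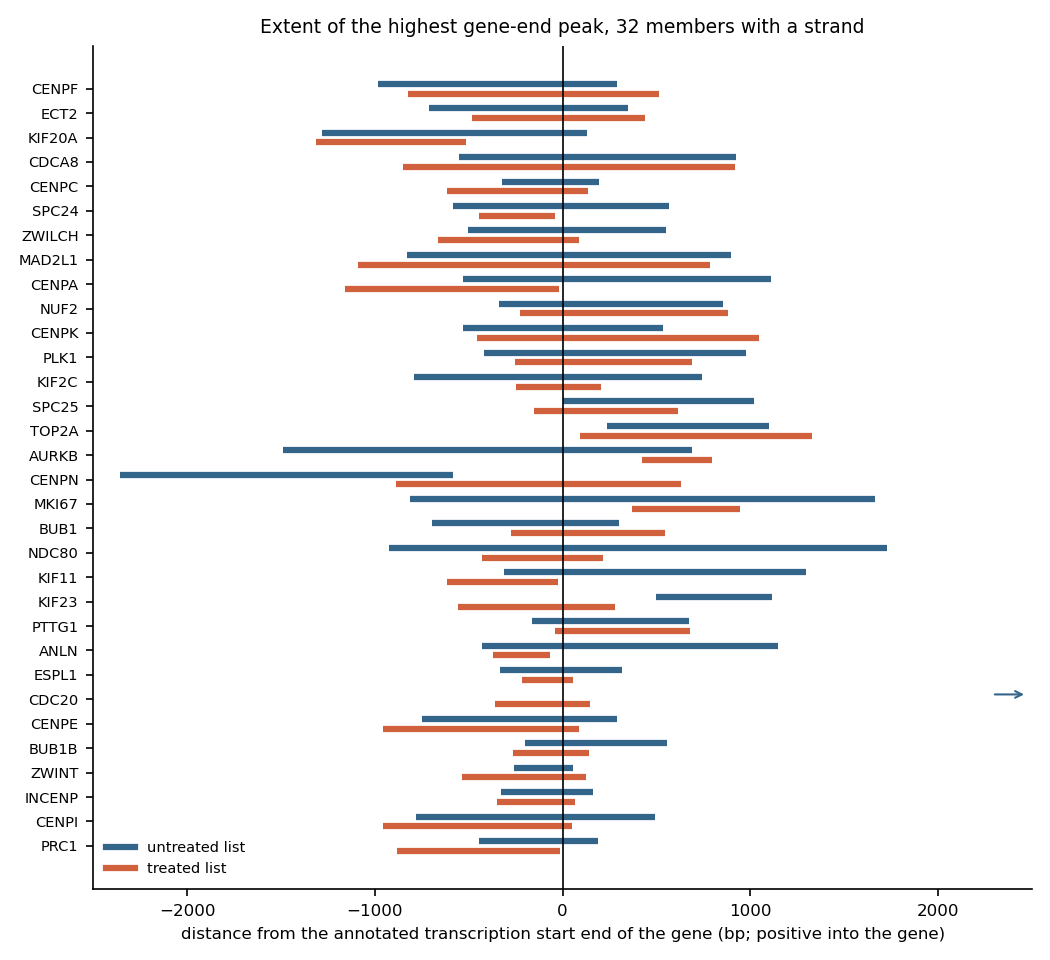
Extent of the highest gene-end peak of 32 members, in bp from the annotated end of the gene where transcription starts (x axis, positive into the gene), with rows ordered by the greater height of the lists. Each bar runs from the first to the last base of a peak, in the untreated list (blue) or the treated list (orange), and the arrow at CDC20 stands for a untreated peak at the far end of the gene. The vertical line is the start, covered at 27 members in the untreated list and 23 in the treated list.

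Some members shared their site with a neighbour. At 12 members in the untreated list and 11 in the treated list another protein-coding gene had an end within 1 kb of the peak, against 26.0% and 25.7% of all genes with a gene-end peak, which is near the members' share. At 10 members this held in both lists, and 27 members shared neither peak. The shared members included CDCA8, KIF20A, ZWILCH, NUF2 and CENPK of the strong peaks, so the peaks of CENPF, ECT2, CENPC, SPC24, MAD2L1, CENPA and TPX2 were the strong ones in both lists with no such neighbour.

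The elements named above as known for promoters of such genes, CHR and CCAAT, were frequent in the members' promoters. Their shares describe the kind of gene listed and are not a measure of FOXK1 binding. TTTGAA, the core of the CHR element, was found on either strand in 22 of 32 member promoters (68.8%), against 12.1% of all 15842 promoters and 8.08% of those rich in CpG. CCAAT was found in 25 of 32 (78.1%), against 36.4% and 35.4%. Both together, a count made after the single motifs were seen, were found in 18 of 32 (56.2%), against 5.02% of all promoters. Promoters of the 2031 genes with an entry and a strong peak in both lists held TTTGAA in 10% and CCAAT in 39.6% of cases, close to all promoters. CENPI, CENPE and KIF2C had neither. The CENPI entry starts inside the gene and was touched by neither of its gene-end peaks.

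Forkhead letters were found at shares not far from those of all promoters. GTAAACA, the usual forkhead consensus, was found in 0 of 32 member promoters, against 2.61% of all promoters, 2% of those rich in CpG and 6.3% of those of genes strong in both lists. TAAACA, a shorter form contained in it, was found in 2, BUB1B and CENPE (6.25%), against 8.95% of all and 5.51% of CpG-rich promoters. GTAAAC, also contained in it and searched after the CENPF promoter was read, was found in 3, CENPF, KIF2C and ESPL1 (9.38%), against 6.18% and 4.98%. Promoters of genes strong in both lists held TAAACA in 12.3% and GTAAAC in 10.1% of cases. These windows span 300 bp, while the peaks were often wider, so letters elsewhere under a peak were not searched. A match is a stretch of letters and not a binding site, and a missing one says only that the letters are not in the window.

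Of the other motifs, TGANTCA (AP-1) was found in 0 of 32 and in 5.75% of all promoters. TTCCCGC (E2F) was found in 3 members (9.38% against 8.6%), CENPA, CENPN and SPC25. TGACGTCA (CRE) was also found in 3 (9.38% against 2.59%), CENPE, NDC80 and PRC1. CCGGAAG (ETS) was found in 5 (15.6% against 14.2%). Among promoters rich in CpG the shares were 3.1% for TGANTCA, 11.5% for TTCCCGC, 3.6% for TGACGTCA and 19.8% for CCGGAAG. All motifs were searched on both strands.

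In the sequences printed above, with the first transcribed base counted as 1, CENPF held CCAAT from bases -94 and -33 and, on the opposite strand, from -58 and 13, and TTTGAA from base 41. Its GTAAAC began at base -154. ECT2 held CCAAT from -97, -58 and -2 and TTTGAA from -115 and 35. CDCA8 held TTTGAA from -23 and CCAAT on the opposite strand from -115, -75 and -18, the last overlapping the TTTGAA by 1 base. CENPC held CCAAT from -43 and, on the opposite strand, from -129, and on that strand also TTTGAA from -90 and CCGGAAG from -12. KIF20A held CCAAT on the opposite strand from -94 and -67, and TTTGAA was not in its window. Members with CCAAT had a median height of 16 in the untreated list and 13 in the treated list, against 11 and 8 for the 7 without. With TTTGAA the medians were 14 and 12.5, against 16.5 and 10.5 without. These differences were not tested.

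**Figure D4:**
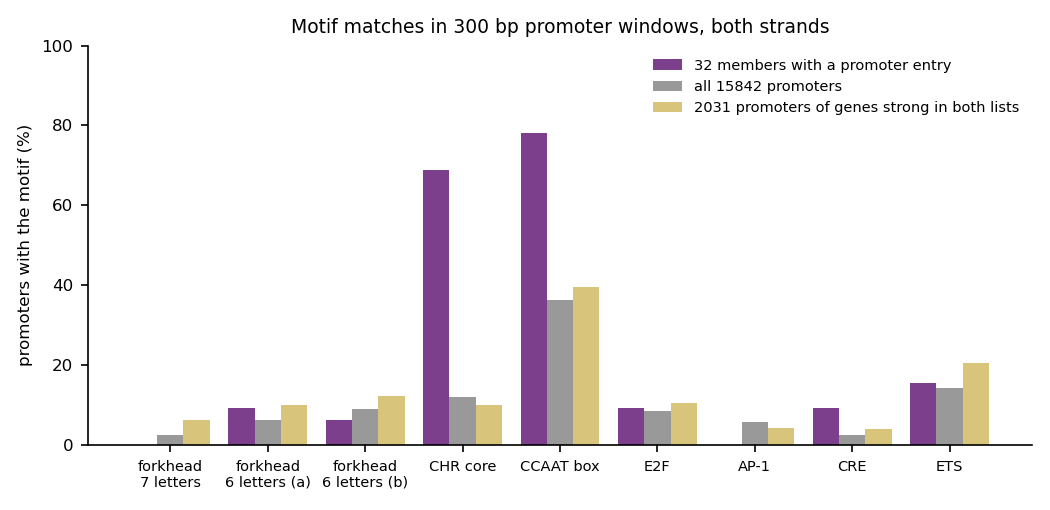
Share of promoters (y axis, percent) that hold each motif on either strand within 300 bp, for the 32 members with a promoter entry (purple), all 15842 promoters (grey) and those of the 2031 genes strong in both lists (yellow). The forkhead motifs are GTAAACA, then GTAAAC (a) and TAAACA (b). CHR core (68.8% against 12.1%) and CCAAT box (78.1% against 36.4%) are the motifs with the widest gaps between members and all promoters.

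Other mitotic genes outside the list were counted by role. Over all protein-coding genes, 75.3% had a gene-end peak in the untreated list and 74.6% in the treated list. A strong one was found at 17.0% and 15.7%. Among genes with a CpG-rich promoter, 86.8% and 85.9% had a gene-end peak, and 23.9% and 22.1% a strong one. Of 17 genes of the anaphase-promoting complex and its enzymes, 17 had a gene-end peak in the untreated list and 16 in the treated list, and 5 and 7 were strong, with CDC23 highest at 27 and 24. Of 12 cohesin genes, which hold sister chromatids together, all had one in both lists and 8 were strong in each, led by SMC3 with 82 and 86 and STAG2 with 82 and 83. Of 8 condensin genes, 7 and 8 had one and 3 and 2 were strong. NCAPD2 was highest at 46 and 47, but these peaks did not overlap, and the treated one was shared with MRPL51. All 14 further inner kinetochore and loading genes had one, with 7 and 5 strong and CENPQ, shared with MMUT, at 50 and 42. All 10 further outer kinetochore and checkpoint genes had one, with 5 and 3 strong and DSN1 at 27 and 29. CENPF was thus higher than every gene of these 5 lists in both peak lists.

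Genes that regulate or precede mitosis held some higher peaks, several of them shared with a neighbour. Of 11 MuvB, FOXM1 and related regulator genes, 10 and 11 had a gene-end peak and 6 and 7 were strong. LIN52, a MuvB subunit, had 119 and 102 from a peak shared with ALDH6A1, and RBL2, the pocket protein p130 that joins MuvB in quiescence, had 62 and 61. Among the helicase genes MCM2 to MCM7, all 6 had one and 3 and 4 were strong, with MCM7, shared with AP4M1, at 188 and 215. Among 8 cyclin genes 7 had one and 3 were strong in each list, with CCNE2, shared with NDUFAF6, at 282 and 331. Median heights in the untreated and treated lists were 29.5 and 19 for the helicase genes and 14 and 12.5 for the cyclins, against 14 and 11.5 for the mitosis and kinetochore genes. Over all protein-coding genes, 75.3% and 74.6% had a gene-end peak, 17.0% and 15.7% had a strong one, and the medians were 8 and 7. These gene lists were not compared by a test.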

How the data were processed

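The members, gene lists and motifs were chosen with earlier results of these data known. The deposited files were 1 peak list per condition, each FOXK1 library called against its own input, per the peak names in the files. The submitters' processing notes name hg38, MACS2 2.1.1.20160309 and bcl2fastq 2.17. For the aligner, read filters, peak threshold and read depth, the settings are not given in the sources used here. The deposited signal of each peak is a whole number of at least 3, read here from its format as the pileup height that the authors obtained from MACS2. Starts were read as counting from 0, which the files do not state.

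Peaks on the 24 assembled chromosomes were assigned with Python 3.11.15, numpy 2.4.6 and pandas 2.3.3 to RefSeq protein-coding genes (GRCh38.p14, the coordinates of hg38). Figures used matplotlib 3.10.9. Exons were not used here. The assignment code was run on simulated peaks at genes far from other gene ends. That run checks the code only and does not cover peaks shared by neighbouring genes. A percentile is the share of genes with a lower height. Promoter entries were matched for 32 members and not for AURKA, BUB3, TTK, BIRC5, CENPH, CENPM, KNL1 and TPX2. The genes named with values by rule were the 14 highest members, those whose highest peaks did not overlap, and up to 3 genes of each related list. Other members are given to account for all. With 1 library per group there was no error, interval or test.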

Additional observations from a re-analysis of the deposited data

How the results depend on the processing

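The count of 40 members with a gene-end peak in each list held with windows of 500 bp (66.8% and 65.0% of all genes in the untreated and treated lists) and 2 kb (84.4% and 83.9%), with peaks of height 5 or more, and with starts read as counting from 1. At the transcription start alone it was 32 of the 32 members with a strand in each list (67.8% and 66.9% of such genes). With peaks of height 10 or more, 30 members remained in the untreated list and 25 in the treated list (39.8% and 32.7% of all genes). The highest peaks then overlapped at 21, which were all the members with such a peak in both lists except TTK. With peaks of any height, they overlapped by at least 50% of the shorter peak at 32 members. The shares of all genes for these overlap counts were not computed. The strong counts depended on the minimum. Down to the 5000th highest peak they were 9 in the untreated list, 5 in the treated list and 4 in both, against 9.10%, 7.65% and, for both, 1201 of the 20033 protein-coding genes. Down to the 20000th they were 25, 22 and 19 (27.4%, 28.1% and 21.5%). From a height of 20 they were 11 in the untreated list, 7 in the treated list and 6 in both (12.2%, 8.51% and 7.16%). Median heights moved to 13.5 in the untreated list with the 500 bp window, to 14.5 there at starts only, and to 12.5 in the treated list with the 2 kb window. No paired analysis was possible because each group held 1 sample, and no library could be left out. Depth limits every height and was unknown.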
